A study of Homo sapiens with 40 samples.

Results

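The 246 genes described here are the protein-coding genes of human chromosome 19 whose symbol is ZNF followed by digits and an optional letter. They were chosen by symbol and chromosome alone, from 19447 RefSeq protein-coding genes of at least 1 kb, 1437 of them on chromosome 19. For each gene the measure is its covered percent, the share of its annotated bases that lay inside a called H3K27me3 peak in a library. The libraries were made by CUT&Tag, in which an antibody directs a transposase to chromatin with the modification, from KMS-11 cells, a multiple myeloma line with the t(4;14) translocation that drives overexpression of the histone methyltransferase NSD2.

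The NSD2 KO groups were KO clones 3 and 12, compared with the wild-type KO parental line. The degradation groups were NSD2_dTAG knockin clones 8 and 11, in which NSD2 carries a tag that the compound dTAGV-1 links to the VHL ubiquitin ligase. They were sampled at days 0, 7, 14 and 21 of dTAGV-1, at 100 nM per the labels' protocols, beside the untagged dTAG parental line at the same days, for which no dose is stated. Each of these 15 groups had 2 libraries, 30 in all, and every group carries the t(4;14) background. Each genotype was represented by 2 clones, and the days of a clone are not separate clones. No label says that the parental libraries came from separate cultures, so p-values measure how libraries varied, and that variation may be technical. All libraries came from bulk nuclei, so fewer cells with the mark and less of it per cell cannot be told apart.

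Most ZNF genes of chromosome 19 encode C2H2 zinc finger proteins, many with a KRAB domain, which recruits the corepressor TRIM28 and is known for silencing transposable elements. They stand in tandem clusters that arose by gene duplication. Their bodies are better known for H3K9me3, a mark of constitutive heterochromatin, than for H3K27me3, which the Polycomb repressive complex PRC2 lays down at many CpG-rich promoters and spreads over silent domains. NSD2 deposits H3K36me2, a mark that hinders PRC2.

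Start regions of 4 of the genes are printed because the peaks described below lie at them or away from them. Each runs from 250 bases before to 50 after the RefSeq start on GRCh38.p14, 5′ to 3′ on the gene's strand, in lower case with each CG dinucleotide, the letters searched, in capitals. CG reads the same on both strands, and its matches do not overlap. It was in 100% of the 216 windows found for the ZNF genes and in 98.4% of 15411 windows over all genes. ZNF577 and ZNF813 are genes with called losses of coverage, ZNF234 is a gene with called gains, and ZNF296 carried a peak at its start in all 30 libraries. The ZNF577 window lies at chr19:51887902-51888201 on the minus strand and holds 25 CG. ZNF813 has its window at chr19:53467483-53467782 on the plus strand, also with 25 CG. The ZNF234 window, at chr19:44141304-44141603 on the plus strand, holds 20 CG. That of ZNF296, at chr19:45076429-45076728 on the minus strand, holds 29 CG.
ZNF577: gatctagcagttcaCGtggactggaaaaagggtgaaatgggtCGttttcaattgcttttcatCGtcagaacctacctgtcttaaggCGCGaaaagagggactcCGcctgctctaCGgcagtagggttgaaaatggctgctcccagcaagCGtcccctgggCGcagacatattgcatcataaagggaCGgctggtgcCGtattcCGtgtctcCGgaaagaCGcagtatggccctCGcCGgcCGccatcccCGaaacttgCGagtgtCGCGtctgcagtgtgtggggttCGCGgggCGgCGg
ZNF813: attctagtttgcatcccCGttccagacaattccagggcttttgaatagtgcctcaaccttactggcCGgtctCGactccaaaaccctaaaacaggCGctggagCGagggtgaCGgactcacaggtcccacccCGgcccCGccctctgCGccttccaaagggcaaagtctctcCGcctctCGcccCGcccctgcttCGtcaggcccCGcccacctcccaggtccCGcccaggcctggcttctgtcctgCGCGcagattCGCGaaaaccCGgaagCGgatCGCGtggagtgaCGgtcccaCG
ZNF234: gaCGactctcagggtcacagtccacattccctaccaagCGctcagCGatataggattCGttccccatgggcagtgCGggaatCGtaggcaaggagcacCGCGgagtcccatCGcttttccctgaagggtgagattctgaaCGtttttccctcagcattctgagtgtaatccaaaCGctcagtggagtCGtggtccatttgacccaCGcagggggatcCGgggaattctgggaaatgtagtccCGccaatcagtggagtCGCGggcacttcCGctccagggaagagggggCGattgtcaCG
ZNF296: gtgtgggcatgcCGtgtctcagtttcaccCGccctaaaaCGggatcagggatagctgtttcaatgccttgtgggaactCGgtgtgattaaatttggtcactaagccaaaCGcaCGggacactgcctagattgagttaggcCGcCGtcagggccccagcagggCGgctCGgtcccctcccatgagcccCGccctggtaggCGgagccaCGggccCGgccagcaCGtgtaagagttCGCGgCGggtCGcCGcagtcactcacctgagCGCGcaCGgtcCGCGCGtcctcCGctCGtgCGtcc

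The lists held 34740 to 205920 peaks per library and covered 36.1 to 168 Mb of the genome, and 3.41 to 7.50 Mb of chromosome 19. Called length moved with the groups. It averaged 130.4 ± 30.7 Mb in KO clones (SD, n = 4) and 67.4 ± 19.3 Mb in KO parental libraries (SD, n = 2). The day 0 libraries of the dTAG clones averaged 50.7 ± 14.1 Mb, those of day 7 111.8 ± 11.6 Mb, those of day 14 112.8 ± 25.9 Mb and those of day 21 120.3 ± 29.9 Mb (SD, n = 4 per day). Background pileup, which stands for depth and was estimated from the lists, ranged from 2.04 to 2.84 in KO clones and from 1.50 to 2.58 in KO parental libraries, and at day 21 of the dTAG clones from 1.61 to 2.84, against 0.922 to 2.30 at day 0. Fits scaled by called length and with pileup as a covariate are given in the closing section, and the part of depth in the results was otherwise not tested. As a check of the cell type, 10 plasma cell and myeloma genes had a median covered percent of 3.83, and the plasma cell gene JCHAIN lay outside peaks in every library. The medians were 17.1 for 6 B cell genes, 13.4 for 6 T cell genes and 12.1 for 6 myeloid genes. The plasma cell gene SLAMF7 stood at 34.8%, and the B cell gene MS4A1 at 3.19% and the T cell genes CD3E at 2.41% and BCL11B at 0.429% lay below the plasma cell median.

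The median ZNF gene of chromosome 19 had a mean covered percent of 1.35 over the 30 libraries (quartiles 0.408 and 3.31), against 10.1 for the other genes of chromosome 19, 1.78 for ZNF genes of other chromosomes and 3.10 for all genes. By bases the ZNF genes of chromosome 19 were more covered than all genes in 12 of the 14 libraries of parental lines and untreated dTAG clones and in 0 of the 16 of KO clones and treated dTAG clones. The 23 zinc finger genes of chromosome 19 with other symbols (such as those starting ZSCAN or ZFP) had a median of 5.84. Of the 246 genes, 41 lay outside peaks in all 30 libraries, 83 had coverage in every library and 7 averaged over 20%. The genes were 2469 to 487995 bp long with a median of 23151.5 bp, and 24 of them overlapped another of the 246. Across genes, mean covered percent had a Spearman's rho of -0.452 with gene length (n = 246, Pearson's r = -0.117) and of 0.427 with the number of CG in the start window (n = 216, Pearson's r = 0.325). These correlations are descriptions, since the genes share the same libraries and neighbours share peaks.

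In cells without NSD2 the H3K27me3 lists were longer, and the share of them inside the ZNF genes of chromosome 19 was smaller. The percent of all called length that lay inside the 246 genes was 0.123 and 0.115 in KO clone 3 and 0.166 and 0.153 in KO clone 12, against 0.355 and 0.323 in KO parental libraries. The KO clones averaged 0.139 ± 0.024% (SD, n = 4) and the KO parental line 0.339 ± 0.023% (SD, n = 2), and the groups did not overlap. In dTAG clones the same share averaged 0.333 ± 0.019% at day 0, 0.134 ± 0.013% at day 7, 0.111 ± 0.007% at day 14 and 0.112 ± 0.012% at day 21 (SD, n = 4 each). Every library of days 7, 14 and 21 lay below every library of day 0. The untagged dTAG parental line stayed between 0.279% and 0.311% at all 4 days. Over the series, the 16 libraries of KO clones and treated dTAG clones held 0.101% to 0.166% with a median of 0.118%, and the other 14 held 0.279% to 0.359% with a median of 0.310%.

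**Figure D1:**
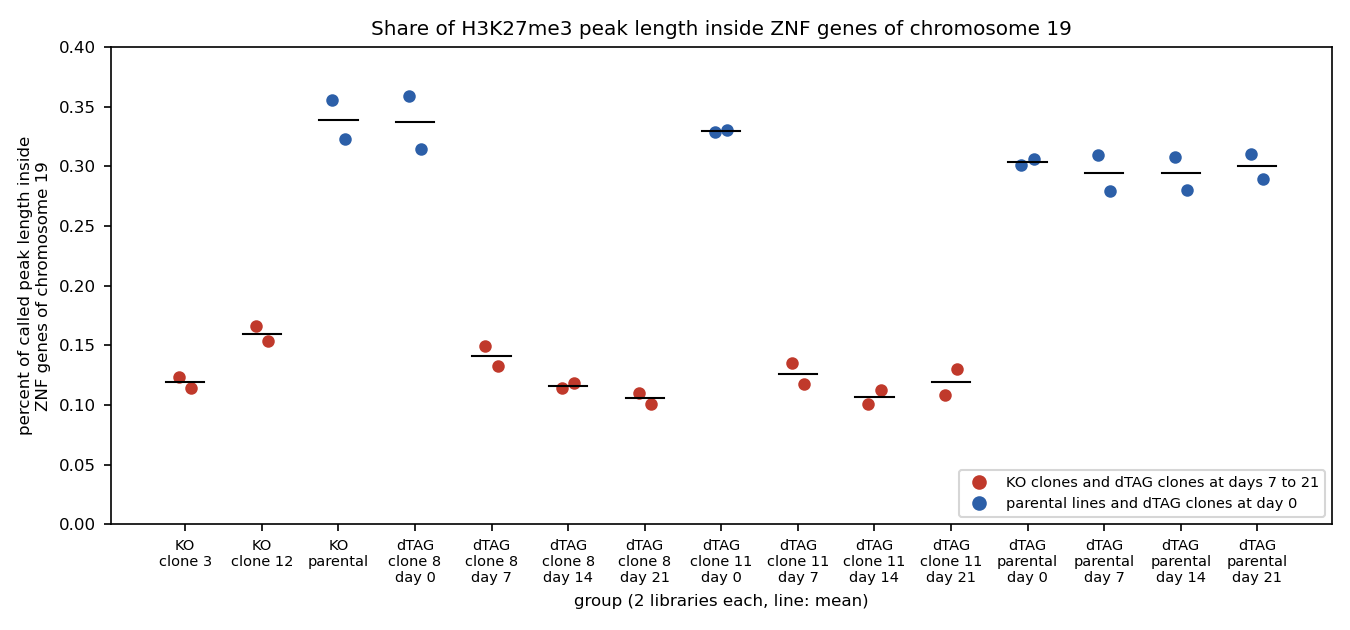
Percent of each library's called peak length that lies inside the 246 ZNF genes of chromosome 19 (vertical axis), by group (horizontal axis), with 1 point per library and a line at the mean of 2. The 16 KO and treated dTAG clone libraries sit between 0.101% and 0.166%, below the 14 others.

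Much of this was shared by the whole chromosome. Chromosome 19 held 4.14 ± 0.65% of the called length in KO clones (SD, n = 4) and 8.20 ± 0.03% in KO parental libraries (SD, n = 2), and 4.13 ± 0.20% at day 21 against 9.02 ± 0.37% at day 0 of the dTAG clones (SD, n = 4 each). Within chromosome 19's own called length, the ZNF genes took 3.37 ± 0.26% in KO clones, with a range of 3.14% to 3.70%, and 4.14 ± 0.30% in KO parental libraries, with values of 4.35% and 3.93%. At day 21 they took 2.72 ± 0.25% of it, between 2.40% and 2.98%, and at day 0 3.71 ± 0.34%, between 3.32% and 4.14%. These ranges did not overlap in either comparison, but the result depended on which peaks were kept. With peaks of -log10 q of at least 5 only, the ZNF share of chromosome 19's called length hardly differed in the KO experiment. It was 3.57 ± 0.52% in KO clones (SD, n = 4) and 3.56 ± 0.70% in KO parental libraries (SD, n = 2). At day 21 its mean was higher, 3.85% against 3.33% at day 0, but the libraries overlapped (2.89% to 4.64% against 3.04% to 3.48%). With peaks of a fold of at least 4 only, this ZNF share was 9.16% in KO clones and 11.7% in KO parental libraries. It was 9.83% at day 21 against 10.6% at day 0, where the libraries overlapped. In the peaks of -log10 q of at least 5, the share of all called length was 0.234% in KO clones and 0.329% in KO parental libraries, and 0.260% at day 21 against 0.366% at day 0, where the libraries overlapped (highest at day 21 0.333%, lowest at day 0 0.306%).

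In bases, the ZNF genes differed by less than the SD of the KO parental or day 0 libraries. The differences were larger than the SD of the KO or treated libraries. Peaks covered 2.53 ± 0.46% of their 7.04 Mb in KO clones (SD, n = 4) and 3.28 ± 1.15% in KO parental libraries (SD, n = 2). In dTAG clones they covered 2.43 ± 0.82% at day 0, 2.11 ± 0.13% at day 7, 1.77 ± 0.35% at day 14 and 1.90 ± 0.40% at day 21 (SD, n = 4 each). The libraries overlapped in each comparison with day 0 and between KO clones and their parental line. The dTAG parental line had 2.48% at day 0, 2.61% at day 7, 2.93% at day 14 and 3.35% at day 21. Over all genes the covered share was 4.68% in KO clones and 2.77% in KO parental libraries, and 4.23% at day 21 against 2.13% at day 0. The other genes of chromosome 19 had 11.9% in KO clones and 12.4% in KO parental libraries, and 11.6% at day 21 against 10.8% at day 0. ZNF genes of other chromosomes had 4.27% in KO clones and 3.22% in KO parental libraries, and 3.62% at day 21 against 2.25% at day 0.

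Gene by gene, 149 of the 246 ZNF genes had a mean covered percent between 1 and 99 and entered the test, limma with 1 mean per group and Benjamini-Hochberg adjustment over 13975 genes. The other 97 averaged under 1%. Where the libraries of a gene or cluster are said below not to overlap in a single comparison, that is a description. How many of all genes separate in the same comparison was not counted. Between KO clones and the KO parental line, 1 of 149 gained and 6 lost coverage at adjusted p under 0.05, beside a background of 18% of all tested genes gained and 0.744% lost. Of the ZNF genes, 51 were higher and 98 lower in KO clones, with a median difference of -0.40 percentage points, against 1.46 over all genes. ZNF234 gained, and ZNF671, ZNF665, ZNF813, ZNF266, ZNF229 and ZNF211 lost. With clone 3 alone 1 gained and 3 lost (background 21.9% and 0.673%). With clone 12 alone 0 gained and 0 lost in limma (background 4.47% and 0.193%), and 10 of 149 had an unadjusted p under 0.05, against 17.5% of all genes.

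Between day 7 and day 0 of the dTAG clones, 1 ZNF gene gained and 2 lost (background 21.1% and 0.243%). At day 14 the counts were 2 gained and 4 lost (background 22% and 0.63%), and at day 21 they were 3 gained and 4 lost (background 26.5% and 0.494%). The median difference over the ZNF genes was -0.02 percentage points at day 7, -0.37 at day 14 and -0.04 at day 21, against 1.90, 1.50 and 2.05 over all genes on those days. At day 21, 72 were higher and 77 lower. ZNF234, ZNF223 and ZNF563 gained, and ZNF577, ZNF665, ZNF134 and ZNF525 lost. The days share the day 0 libraries. Clone 8 alone at day 21 gave 1 gained and 3 lost (background 17% and 0.243%), and clone 11 alone 1 gained and 0 lost in limma (background 8.48% and 0.093%).

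The untagged dTAG parental line gave no call among the ZNF genes in limma at day 7, 14 or 21 against day 0 (background 0%, 0% and 0.0143% gained, and 0% lost on each day). At an unadjusted p under 0.05, 5, 7 and 12 of the 149 passed on those days. On each day this was a larger share than the 2.09%, 2.5% and 3.84% of all genes. At day 21, 112 were higher and 32 lower than at day 0, with a median difference of 0.81 points, against 0.85 over all genes. The day 21 change of the dTAG clones minus that of the parental line was below 0 for 102 of 149 ZNF genes, with a median of -0.75 points against 0.92 over all genes. In that contrast 0 were called higher and 2 lower in limma (background 1.93% and 0.0859%), namely ZNF665 and ZNF653, and 16 had an unadjusted p under 0.05, against 16.5% of all genes.

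**Figure D2:**
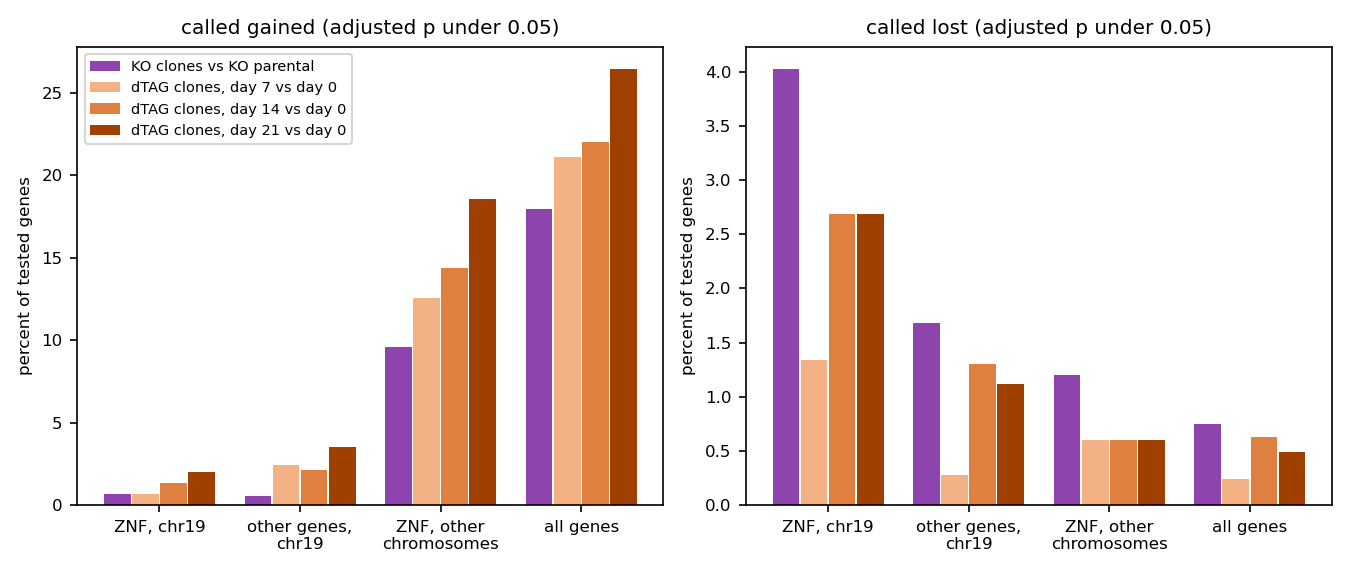
Percent of tested genes called gained (left) and lost (right) at adjusted p under 0.05, for the ZNF genes of chromosome 19, the other genes of chromosome 19, ZNF genes of other chromosomes and all genes (horizontal axis), with a bar for each of 4 comparisons. The left bars of ZNF genes on chromosome 19 stay at or below 2.01%, against 18% to 26.5% over all genes.

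Gains were few on chromosome 19 as a whole. In KO clones 0.671% of tested ZNF genes and 0.56% of the other tested genes of chromosome 19 gained, and 4.03% and 1.68% lost. At day 21 2.01% of the ZNF genes and 3.54% of the other genes gained, and 2.68% and 1.12% lost. Among ZNF genes of other chromosomes 9.58% gained in KO clones and 18.6% at day 21. When each covered percent was first scaled by the library's called length, 29 of 157 ZNF genes (18.5%) were called lower in KO clones, beside 13.5% of all genes and 27.0% of the other genes of chromosome 19. At day 21 the scaled counts were 96 of 157 (61.1%), beside 32% of all genes and 59.2% of the other genes of chromosome 19. With lists cut to equal length, 0 of 112 ZNF genes gained in KO clones or at day 21, beside 2.39% and 5.1% of all genes. In that setting 1 and 6 ZNF genes were lost, beside 2.17% and 5.08% of all genes.

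ZNF577, a KRAB zinc finger gene of cluster 8 (GRCh38.p14, 51804442 to 51887951), had the largest called loss of coverage at day 21. Its KO and treated dTAG clone libraries had a median of 0.36%. Its mean thus reached the filter of 1% only through parental and untreated libraries, which limits what its calls say. Clone 8 had 8.78% and 3.98% at day 0, 1.01% and 0.239% at day 7, 0% and 0.369% at day 14, then 0.387% and 0% at day 21. Clone 11 had 6.13% and 6.10% at day 0, 0.351% and 0% at day 7, 0.587% and 0% at day 14, then 0.636% and 0% at day 21. All treated libraries were lower than all day 0 libraries, and the dTAG parental line stayed between 4.27% and 11.7%. The difference from day 0 was -5.85 points at day 7, -6.01 at day 14 and -5.99 at day 21 (SE 1.54 each, limma adjusted p = 0.0122, 0.0087 and 0.00743). Without clone 8 day 0 replicate 1 the ZNF577 difference at day 7 was -4.65 points and its call ended (limma adjusted p = 0.055). In KO clone 3 ZNF577 had 0% and 0.825% and in clone 12 2.89% and 1.30%, against 8.53% and 3.07% in the KO parental line. The groups did not overlap, and that difference of -4.54 points did not pass in limma (SE 1.89, adjusted p = 0.114). The ZNF577 body held 5 to 10 peaks per library at day 0, up to 82802 bp from the start, and at day 21 it held 0 to 2. When peaks were joined over gaps of up to 3 kb the day 21 difference of ZNF577 was -7.17 points and its call ended. The ZNF577 start window printed above was in a peak in 10 of 30 libraries, among them 0 of 4 KO libraries and 1 of 2 KO parental libraries. In the dTAG clones it was in a peak in 1 of 4 libraries at each of days 0, 7 and 14 and in 0 of 4 at day 21. The window thus hardly differed where the loss was called.

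ZNF577 and ZNF420 were the 2 of the 149 tested ZNF genes in which every KO and treated dTAG clone library lay below every other library. Over all 13975 genes the same held for 2 (0.0143%), so no other tested gene did so. The opposite, every KO and treated library above every other, held for 0 ZNF genes and for 8.21% of all genes. ZNF420, also called Apak, encodes a KRAB protein known as a repressor of p53 (37007902 to 37130368, cluster 6). It had 0.359% and 0% in KO clone 3 and 1.23% and 0.539% in clone 12, against 3.89% and 2.19% in the KO parental line. At day 21 it had 0.472% and 0.330% in clone 8 and 0.282% and 0.624% in clone 11, against 5.92%, 1.53%, 2.74% and 1.80% at day 0. The ZNF420 differences of -2.51 points in KO clones and -2.57 at day 21 did not pass in limma (SE 1.60 and 1.31, adjusted p = 0.354 and 0.171). These 2 genes were found by looking for this separation and carry no test of it. Like ZNF577, ZNF420 reached the filter of 1% only through parental and untreated libraries. Its KO and treated libraries lay between 0% and 1.27%.

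ZNF665, a zinc finger gene of cluster 8 (53162424 to 53193358), fell in both experiments. It had 1.54% and 1.14% in KO clone 3 and 0.685% and 0% in clone 12, against 7.92% and 5.77% in the KO parental line. The groups did not overlap, and the difference was -6.00 points (SE 1.68, limma adjusted p = 0.0175). At day 21 it had 1.66% and 1.30% in clone 8 and 1.66% and 0% in clone 11, against 8.93%, 6.06%, 5.75% and 2.83% at day 0, a difference of -4.74 points (SE 1.38, limma adjusted p = 0.0156). At day 7 the ZNF665 libraries of clone 11, at 4.06% and 0.753%, overlapped the day 0 values, and the difference did not pass (limma adjusted p = 0.0515). In the dTAG parental line it had 10.4% and 6.42% at day 21, against 2.98% and 0% at day 0, so the change of the clones minus that of the parental line was -11.64 points (SE 2.38, limma adjusted p = 0.0215). The KO call of ZNF665 ended without KO parental replicate 1 (limma adjusted p = 0.17) or 2 (0.057), and the day 21 call without clone 8 day 0 replicate 1 (0.061) or clone 11 day 0 replicate 1 (0.073). The call on the difference from the parental line ended in 5 of 12 fits that left out 1 library, those without dTAG parental day 0 replicate 1 (limma adjusted p = 0.082), day 0 replicate 2 (0.1) or day 21 replicate 1 (0.1), clone 8 day 0 replicate 1 (0.052) or clone 11 day 0 replicate 1 (0.055). The KO and day 21 calls also ended when peaks were joined over gaps of up to 3 kb.

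**Figure D3:**
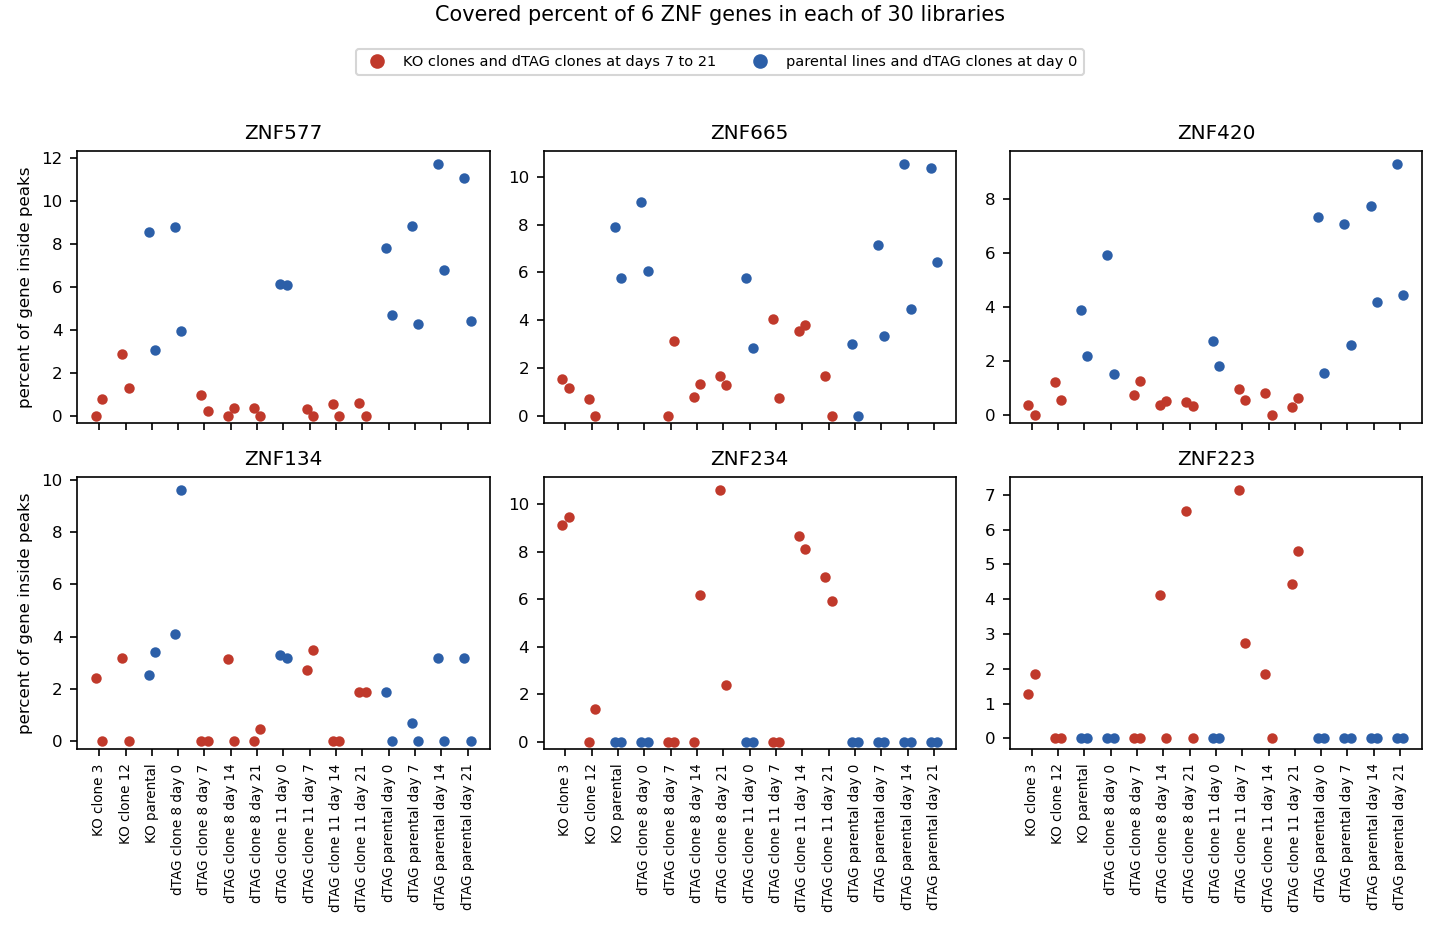
Covered percent (vertical axes) of ZNF577, ZNF665, ZNF420, ZNF134, ZNF234 and ZNF223 in each of 30 libraries, 2 points per group (horizontal axes), with KO clones and treated dTAG clones in red and all others in blue. The red points of ZNF577 and ZNF420 lie below all blue ones, and the blue points of ZNF234 and ZNF223 are all at 0%.

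ZNF134 (57614242 to 57624724, cluster 9) carried its day 0 coverage at the start. Clone 8 had 4.10% and 9.62% at day 0, 0% in both libraries at day 7, 3.14% and 0% at day 14, then 0% and 0.467% at day 21. Clone 11 had 3.29% and 3.20% at day 0, 2.71% and 3.47% at day 7, 0% in both at day 14, then 1.86% in both at day 21. The day 21 libraries were all lower than those of day 0, while at day 7 clone 11 overlapped day 0. The ZNF134 differences were -3.51 points at day 7, -4.27 at day 14 and -4.00 at day 21 (SE 1.11 each, limma adjusted p = 0.0314, 0.00925 and 0.0116). Without clone 8 day 0 replicate 2, the day 21 difference was -2.6 points and the call ended (limma adjusted p = 0.085), as did that of day 14 (-2.89 points, limma adjusted p = 0.065). The day 7 call of ZNF134 ended when any of 7 of the 8 libraries, all but clone 8 day 0 replicate 1, was left out, and without clone 8 day 0 replicate 2 its difference was -2.13 points (limma adjusted p = 0.2). KO clones, with 2.40%, 0%, 3.20% and 0%, overlapped the KO parental line, with 2.52% and 3.41% (-1.56 points, SE 1.36, limma adjusted p = 0.541).

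ZNF525 (53365705 to 53386590, cluster 8) passed narrowly at day 21. It had 2.11% and 1.14% in clone 8 and 1.14% and 0% in clone 11, against 3.02%, 2.24%, 2.11% and 2.29% at day 0 (-1.32 points, SE 0.48, limma adjusted p = 0.0498). The call ended when any of 7 of the 8 libraries, all but clone 11 day 21 replicate 1, was left out, with differences of -1.56 to -1.03 points. At day 14 the ZNF525 difference was -1.66 points (SE 0.48, limma adjusted p = 0.0174), and in KO clones it was -0.29 points (SE 0.59, limma adjusted p = 0.845). Called at day 14 but not at day 7 or 21 were ZNF417, with a difference of -1.63 points (SE 0.56, limma adjusted p = 0.0427), and ZNF132, with one of 6.09 points (SE 2.10, limma adjusted p = 0.0452). The day 14 call of ZNF525 ended without clone 8 day 0 replicate 1 (limma adjusted p = 0.062), clone 11 day 0 replicate 2 (0.055) or clone 11 day 14 replicate 1 (0.11). That of ZNF417 ended in 7 of 8 such fits, all but the one without clone 8 day 14 replicate 1, and that of ZNF132 in 8 of 8. Both genes lie in cluster 9, and they are named because the counts are small, after their values were seen.

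Of the other losses in KO clones, several rested on 1 library of the parental line. ZNF671, ZNF813 and ZNF266 reached the filter of 1% only through parental and untreated libraries, which limits what their calls say. Of the 16 KO and treated libraries, 13 were at 0% for ZNF671, 13 for ZNF813 and 9 for ZNF266. ZNF671, a gene known for promoter methylation in carcinomas (57719751 to 57727624, cluster 9), had 0% in all 4 KO libraries, against 0% and 17.1% in the KO parental line (-8.56 points, SE 2.80, limma adjusted p = 0.04). Without KO parental replicate 2 the ZNF671 difference was 0, and the call also ended when any KO library was left out. ZNF813 (53467733 to 53496255, cluster 8) had 0% in all 4 KO libraries, against 9.46% and 0.841% in the KO parental line (-5.15 points, SE 1.49, limma adjusted p = 0.0212). Without KO parental replicate 1 the ZNF813 difference was -0.8 points (limma adjusted p = 0.68). At day 21 it had 0.841% and 0% in clone 8 and 0% in both libraries of clone 11, against 4.09%, 1.69%, 1.82% and 2.76% at day 0. The groups did not overlap, and the ZNF813 difference did not pass (-2.38 points, SE 1.22, limma adjusted p = 0.173). Its start window printed above was in a peak in 0 of 4 KO libraries and in 2 of 2 KO parental libraries. ZNF266 (9412429 to 9435573, cluster 2) had 0.596% and 0% in KO clone 3 and 1.81% and 0% in clone 12, against 9.85% and 1.65% in the KO parental line (-5.15 points, SE 1.47, limma adjusted p = 0.0192). Without KO parental replicate 1 the ZNF266 difference was -1.05 points, and the call ended, as it did without KO clone 12 replicate 2 (-4.70 points).

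ZNF211 (57633168 to 57644041, cluster 9) had 2.38% and 2.05% in KO clone 3 and 2.58% and 3.66% in clone 12, against 4.12% and 4.69% in the KO parental line. The groups did not overlap (-1.74 points, SE 0.45, limma adjusted p = 0.0111), and the call ended without KO parental replicate 2 (-1.45 points). ZNF229 (44426254 to 44448578, cluster 7) had 2.49% and 0% in KO clone 3 and 0% in both libraries of clone 12, against 3.75% and 6.63% in the KO parental line (-4.57 points, SE 1.45, limma adjusted p = 0.0342). At day 21 ZNF229 was covered by 6.03%, 0%, 4.27% and 1.49%, against 0% in all 4 day 0 libraries, a difference of 2.95 points that did not pass (SE 1.18, limma adjusted p = 0.0757). The KO call of ZNF229 ended without KO parental replicate 2 (-3.13 points), KO clone 3 replicate 2 (-3.94 points) or either library of clone 12. The ZNF229 peaks of KO parental libraries lay 18913 to 20421 bp downstream of its start.

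The gains included a pair of genes of cluster 7. ZNF234 (44141554 to 44160313) lay outside peaks in all 14 libraries of parental lines and untreated dTAG clones and at day 7. Its mean thus reached the filter of 1% only through KO and treated libraries, and groups at 0% add no variance to its test. In clone 8 its day 14 libraries had 0% and 6.19%, and its day 21 libraries 10.6% and 2.38%. In clone 11 they had 8.67% and 8.12% on day 14, then 6.93% and 5.93% on day 21. The ZNF234 difference from day 0 was 5.75 points at day 14 and 6.46 at day 21 (SE 1.28 each, limma adjusted p = 0.00321 and 0.00112), and all 4 libraries of day 21 were above those of day 0. In KO clone 3 ZNF234 had 9.10% and 9.47% and in clone 12 0% and 1.40%, against 0% in both KO parental libraries (4.99 points, SE 1.57, limma adjusted p = 0.0324). That KO call ended when any of 5 of the 6 libraries, all but clone 12 replicate 1, was left out. The day 21 peaks lay 8307 to 10305 bp downstream of the start with -log10 q of at most 2.39, and the start window printed above was in a peak in 0 of 30 libraries. The change of the dTAG clones minus that of the parental line was 6.46 points (SE 2.21) and did not pass (limma adjusted p = 0.133).

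ZNF223 (44051631 to 44067999) also lay outside peaks in all 14 of those libraries. Like ZNF234, it entered the test only through KO and treated libraries, which limits what its call says. At day 21 it had 6.52% and 0% in clone 8 and 4.44% and 5.39% in clone 11, against 0% in all 4 libraries at day 0 (4.09 points, SE 1.11, limma adjusted p = 0.0103). Without clone 8 day 21 replicate 1 the call ended (limma adjusted p = 0.07). In KO clones ZNF223 had 1.26%, 1.84%, 0% and 0%, against 0% in both KO parental libraries (0.78 points, SE 1.36, limma adjusted p = 0.815). ZNF563 (12317477 to 12347390, cluster 3), which overlaps ZNF442, had 1.74%, 2.02%, 2.59% and 2.93% at day 21, against 1.46%, 0%, 1.40% and 1.05% at day 0. The groups did not overlap (1.34 points, SE 0.34, limma adjusted p = 0.00672), but scaled by called length the ZNF563 difference was 0.3 points and did not pass (limma adjusted p = 0.72). Without clone 8 day 0 replicate 2 it was 0.98 points and the call ended. The largest positive differences in KO clones that did not pass were those of ZNF256, at 8.20 points (SE 7.73, limma adjusted p = 0.584), ZNF581, at 6.76 points (SE 3.59, adjusted p = 0.238), and ZNF57, at 6.09 points (SE 8.09, adjusted p = 0.735).

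ZNF653, which encodes a transcriptional repressor and lies at the start of cluster 3 (11483429 to 11505839), had different changes in the clones and in the parental line. In the dTAG clones it had 3.38%, 3.38%, 3.38% and 2.92% at day 21, against 3.72%, 3.00%, 3.58% and 3.38% at day 0. The dTAG parental line had 11.4% and 9.50% at day 21, against 5.18% and 3.02% at day 0. The difference of the changes was -6.52 points (SE 1.62, limma adjusted p = 0.0475), and the larger of the changes was that of the parental line, whose own test did not pass (limma adjusted p = 0.305). The ZNF653 call ended in 10 of 12 fits that left out 1 library, all but those without clone 8 or clone 11 day 21 replicate 2, with differences of -7.60 to -5.43 points in the 10.

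Coverage of the ZNF genes was densest at their starts. Within 1 kb of the start, 20.2 ± 1.1% of bases lay in peaks in KO clones (SD, n = 4) and 24.7 ± 4.2% in KO parental libraries (SD, n = 2), and 21.0 ± 2.4% at day 21 against 23.0 ± 4.5% at day 0 (SD, n = 4 each). From 2 to 10 kb downstream the values were 1.46% in KO clones and 1.92% in KO parental libraries, and 1.39% at day 21 against 1.68% at day 0. The other genes of chromosome 19 had 36.7% within 1 kb in KO clones and 38.5% in KO parental libraries, and 11.3% and 12.0% from 2 to 10 kb downstream. Start windows of 300 bases were in a peak for 58.1 ± 5.4% of 216 ZNF genes in KO clones (SD, n = 4) and 63.9 ± 6.5% in KO parental libraries (SD, n = 2). Over all genes it was 66.3 ± 3.4% in KO clones and 58.6 ± 6.9% in KO parental libraries. At day 21 the ZNF windows stood at 56.6 ± 7.5%, against 60.6 ± 8.8% at day 0, and windows over all genes at 65.4 ± 4.3%, against 55.3 ± 6.9% (SD, n = 4 each). In both comparisons the mean of the ZNF windows was lower and that of all genes higher, and the ZNF libraries overlapped.

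**Figure D4:**
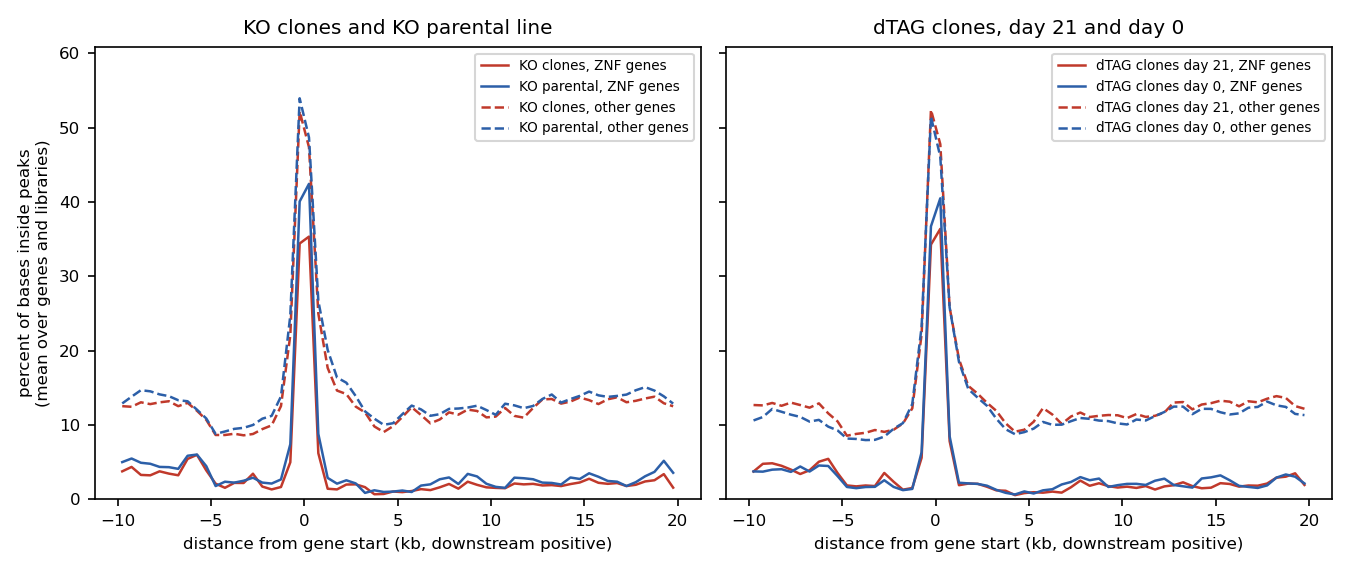
Percent of bases inside peaks (vertical axes) by distance from the gene start in kb, downstream positive (horizontal axes), for the ZNF genes (solid) and the other genes of chromosome 19 (dashed), as means over genes and libraries. All ZNF lines peak within 1 kb of the start, and they stay below the dashed lines throughout.

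The windows of the ZNF genes held a median of 20 CG, with a median observed to expected ratio of CG of 0.763, and 77.3% had a ratio over 0.6. Over all genes the median was 22 CG. Of the 216 ZNF windows 45 (20.8%) lay outside peaks in all 30 libraries and 67 lay in a peak in all 30, and over all genes 18.0% were never in a peak. The window of ZNF420 nearest its outer edge lies inside its annotated body, so its distances are measured from there. Peaks that touched a ZNF gene numbered 166 to 444 per library. Between the 2 libraries of a group, 53.7% to 95.2% of these peaks met a peak of the other library by at least 1 bp, with a median of 78.8%.

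By position the genes formed 9 clusters of at least 5 genes with gaps of at most 1 Mb, and 11 stood apart. Coverage differed more between clusters than between conditions. Cluster 1, ZNF554 to ZNF77 at 2819868 to 2944971, had 5 genes and the highest level, with 14.6 ± 3.0% of gene bases in peaks in KO clones (SD, n = 4) and 14.3 ± 5.2% in KO parental libraries (SD, n = 2). Cluster 4, ZNF101 to ZNF254 at 19668153 to 24129968, near the centromere, had 37 genes and the lowest, with 0.11% in KO clones and 0.14% in KO parental libraries. It held 26 of the 41 genes that lay outside peaks in all 30 libraries.

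Cluster 8, ZNF175 to ZNF331 at 51571283 to 53580269, had 39 genes and was lower in KO clones and after treatment. It had 1.79%, 1.16%, 1.85% and 0.91% of gene bases in peaks in KO clones, against 4.80% and 1.95% in the KO parental line, without overlap. In dTAG clones cluster 8 had 3.08 ± 1.41% at day 0, 1.61 ± 0.23% at day 7, 1.30 ± 0.47% at day 14 and 1.45 ± 0.46% at day 21 (SD, n = 4 each). The day 21 values ran from 1.04% to 2.06% and just overlapped those of day 0, from 2.00% to 5.09%. The dTAG parental line had 2.88% at day 0 and 4.27% at day 21. Of the 24 tested genes of cluster 8, 20 were lower in KO clones and 20 were lower at day 21, with median differences of -1.41 and -1.81 points. ZNF577, ZNF665, ZNF813 and ZNF525 belong to it.

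Cluster 6, ZNF565 to ZNF573 at 36182060 to 37779586, had 0.62%, 0.51%, 0.61% and 0.52% in KO clones, against 1.17% and 0.87% in the KO parental line. At day 21 it had 0.56%, 0.36%, 0.39% and 0.39%, against 1.41%, 0.60%, 0.87% and 0.80% at day 0. The groups did not overlap in either comparison, and ZNF420 belongs to this cluster. Only 8 of the 26 genes of cluster 6 were tested, and they did not fall together. In KO clones 5 were higher and 3 lower, with a median difference of 0.06 points. At day 21, 3 were higher and 5 lower, with a median of -0.27 points. Cluster 7, ZNF575 to ZNF296 at 43530835 to 45076478, had higher means at day 21 in 14 of 15 tested genes, with a median difference of 0.59 points. ZNF234 and ZNF223, at 0% in every day 0 library, entered the test only through KO and treated libraries. They could not count as lower in this tally, and neighbouring genes are not replicates. Scaled by called length the tally turned, with 3 higher and 11 lower and a median difference of -1.64 points (1 gained, 5 lost). It had 3.15%, 1.72%, 3.17% and 1.96% at day 21, against 1.61%, 1.09%, 1.36% and 1.53% at day 0, without overlap. The dTAG parental line ranged from 1.17% to 1.76% over the 4 days, and KO clones had 1.91% and the KO parental line 1.93%. ZNF234, ZNF223 and ZNF229 lie in cluster 7.

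In the other clusters the libraries overlapped in both comparisons, except in cluster 3. Cluster 3, ZNF653 to ZNF791, had 1.37 ± 0.13% in KO clones (SD, n = 4) and 1.69 ± 0.11% in KO parental libraries (SD, n = 2), without overlap, and 1.44% at day 21 against 1.60% at day 0. Cluster 2, ZNF557 to ZNF846, had 1.66% in KO clones and 2.49% in KO parental libraries. Cluster 5, ZNF302 to ZNF792, had 4.74% in KO clones and 6.56% in KO parental libraries. Cluster 9, ZNF628 to ZNF446, the largest with 59 genes, had 3.72% in KO clones and 4.50% in KO parental libraries.

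**Figure D5:**
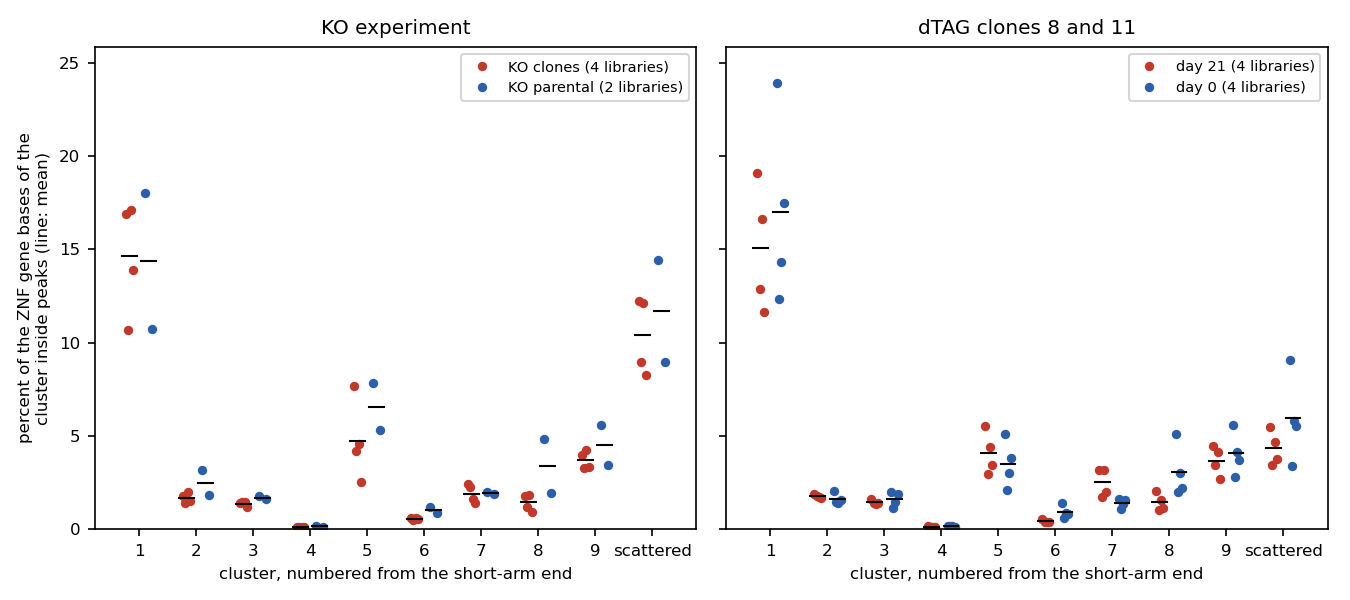
Percent of ZNF gene bases inside peaks (vertical axes) for 9 clusters numbered from the short-arm end and the scattered genes (horizontal axes), with 1 point per library and a line at the mean, KO clones and KO parental line on the left, day 21 and day 0 of the dTAG clones on the right. Cluster 1 is highest, cluster 4 is near 0, and clusters 6 and 8 have lower means in KO clones and at day 21.

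The ZNF genes with the most coverage were not called in KO clones or at day 21. ZNF580 averaged 31.2% but is 2469 bp long, lies inside ZNF581 and ran from 7.49% to 89.9%. ZNF77 averaged 26.5% and ranged from 16.3% to 45.5%. ZNF524, which encodes a telomere-binding protein, averaged 23.8% and kept between 19.8% and 25.5% in all 30 libraries. ZNF296, a partner of reprogramming factors in mouse, averaged 22.3% and kept between 16.8% and 24.9%, all of it in 1 peak at its start in KO clones, KO parental libraries and the dTAG clones at days 0 and 21. ZNF575 averaged 23.7%, and ZNF541, which acts in male meiosis in mouse, averaged 21.5%. ZNF541 had 28.0%, 22.6%, 21.7% and 18.7% in KO clones, against 26.7% and 28.1% in the KO parental line (-4.64 points, SE 3.84, limma adjusted p = 0.513). The highest genes of the other clusters were ZNF414, at 11.4% with a range of 10.0% to 14.1%, ZNF792 at 8.62%, ZNF578 at 6.72%, ZNF101 at 5.31%, ZNF653 at 4.34% and ZNF420 at 2.38%.

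Genes of the TRIM28 corepressor pathway, through which KRAB proteins act, were read beside them from a list of 18. Their median mean covered percent was 1.99. Of these 10 were tested, and 0 were called in limma in KO clones or at day 21 in either direction, beside the background of 18% gained and 0.744% lost in KO clones and of 26.5% and 0.494% at day 21. At an unadjusted p under 0.05, 1 of 10 passed in KO clones and 0 of 10 at day 21, against 28.3% and 36.3% of all genes. TRIM28 itself had 7.12 ± 1.77% in KO clones (SD, n = 4) and 8.41 ± 1.16% in KO parental libraries (SD, n = 2), a difference of -1.29 points (limma adjusted p = 0.717).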

How the data were processed

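H3K27me3 CUT&Tag peak lists of 30 libraries from 50000 nuclei each, with 13 PCR cycles per the labels' protocols, were used, and 10 libraries for IgG, H3K27ac and H3K4me3 were not analysed here. Per the submitters' processing notes the authors used MACS3 3.0.2, Bowtie2, fastp 0.24.0, Picard and SAMtools, with ChIPseeker 1.42.1, DESeq2 and deepTools 3.5.1, on hg38, with no roles given. Whether the IgG libraries served as a control is not given in the sources used here. The deposited lists are broad peaks, 1 list per library. In the deposited lists the score is 10 times the -log10 q, cut to a whole number. The deposited fold is a ratio over the caller's background, and the authors' lists give a -log10 p and a -log10 q for each peak, with a lowest -log10 q of 1.00 to 1.01. These are the authors' values and served only to filter peaks and to estimate depth.

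Depth is not listed. A background pileup of 0.922 to 3.26 was solved, after the data were seen, from the fold and p of the shortest 2% of peaks, assuming a pseudocount of 1 in the fold and a tolerance of 0.002 in -log10 p. A gene without a peak may still bear the mark where a library is shallow.

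Overlapping peaks of a library were merged, and covered percent was computed on RefSeq GRCh38.p14 gene bounds, of the same assembly as hg38. Promoter windows are those of RefSeq, matched by symbol for 216 of 246 genes. Genes with a mean of 1% to 99% entered limma 3.58.1 (R 4.3.3). Each of 15 groups had its own mean, which left 15 residual degrees of freedom, the prior variance followed mean coverage, and p-values were adjusted by Benjamini-Hochberg over 13975 genes. Adjusted p-values come from this fit unless a left-out library or another setting is named beside them. Its error comes from replicate libraries and not from clones, and groups at 0% contribute none. The fit was tested on simulated data. Files were read with data.table (version 1.17.8), pandas 2.3.3 and numpy 2.4.6 in Python 3.11.15, and figures drawn with matplotlib 3.10.9. Named genes are the called genes with the largest gains and losses (up to 10 each, or the 3 largest where fewer than 3 were called) in KO clones and at day 21, the 6 with the highest mean and the highest of each cluster. ZNF420 is among the latter, and ZNF417, ZNF132 and ZNF653 were also named from their calls. Members, gene lists and tests were chosen with earlier results of these data known. Scaling by called length, equal list length, pileup as a covariate, stricter peaks, joined peaks, no filter, longer gene bounds, a replicate block and left-out libraries were tried.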

Additional observations from a re-analysis of the deposited data

Results flagged for a closer look

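Groups of 4 libraries were searched for 1 library far from the other 3. This was done for the ZNF genes called in KO clones or at day 21. It was also done for the share of called length inside the ZNF genes and the percent of their bases in peaks. Of 63 such groups whose values were not all equal, 15 were flagged, each of them for a single gene. In 11 of the 15 the other 3 libraries were equal, 10 times at 0%, so that any different value stands apart, and the rate of about 1 in 20 that chance gives for continuous values does not apply. In KO clones these were ZNF229, at 2.49% in clone 3 replicate 1 with the others at 0%, and ZNF525, at 1.80% in clone 3 replicate 2 with the others at 2.74% to 2.77%. At day 0 ZNF134 had 9.62% in clone 8 replicate 2, against 3.20% to 4.10% in the others. Most of the rest were genes at 0% in 3 of 4 libraries. ZNF671 had 2.62% in clone 11 replicate 1 at day 7, 2.67% in clone 11 replicate 1 at day 14 and 3.06% in clone 8 replicate 1 at day 21. ZNF813 had 2.87% in clone 8 replicate 2 at day 7, 0.316% in clone 11 replicate 1 at day 14 and 0.841% in clone 8 replicate 1 at day 21. ZNF229 had 1.16% in clone 11 replicate 1 at day 7, ZNF266 had 0.298% in clone 8 replicate 1 at day 14, and ZNF134 had 3.14% in clone 8 replicate 1 at day 14. ZNF211 stood apart with coverage in every library, at 2.09% in clone 8 replicate 2 at day 7, 2.57% in clone 8 replicate 1 at day 14 and 3.34% in clone 8 replicate 1 at day 21.

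The day 21 change differed between the dTAG clones and the dTAG parental line for ZNF653 (-6.52 points, limma adjusted p = 0.0475) and ZNF665 (-11.6 points, limma adjusted p = 0.0215). ZNF665 was lower at day 21 in 4 of 4 clone libraries and higher in 2 of 2 parental libraries. Leaving out 1 of 12 libraries ended the call of ZNF653 in 10 fits and that of ZNF665 in 5.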

How the results depend on the processing

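Counts of called ZNF genes depended on scaling. Scaled by called length, KO clones had 0 gained and 29 lost, day 7 0 and 91, day 14 1 and 97, and day 21 1 and 96. These fits held 157 ZNF genes and 13930 genes in all. Of all genes 13.5%, 29.4%, 32.4% and 32% were lost in them, and 10.9%, 14.2%, 15.6% and 15.6% gained. In the same scaling 18 ZNF genes were lower in the difference of changes. KO clone 3 lost 24, KO clone 12 lost 10, clone 8 lost 48 (with 0 gained) and clone 11 lost 33. Of all genes 5.71%, 12.6%, 4.94%, 18.9% and 16.1% were lower in these fits, and 10.3% gained in clone 8. Scaled with a replicate block, the ZNF counts were 0 and 48 in KO clones, 0 and 94 at day 7, 104 lost at day 14, and 1 and 101 at day 21. In the difference of changes 26 were lower. Of all genes 19.8%, 32.2%, 35.3%, 34.7% and 8.44% were lower in these fits. In KO clones 11.9% of all genes gained, at day 7 15% and at day 21 16.3%. With lists cut to equal length 112 ZNF genes were tested. KO clones had 0 gained and 1 lost, day 7 had 0 and 3, day 14 had 0 and 8, and day 21 had 0 and 6. In the difference of changes 0 were lower. Of all genes 2.39%, 2.45%, 4.39% and 5.1% gained in KO clones and at days 7, 14 and 21. In the same order 2.17%, 2.63%, 5.07% and 5.08% were lost, and 0.239% were lower in the difference of changes. With pileup as a covariate 11 ZNF genes were lost in KO clones, 13 at day 7 (0 gained), 20 at day 14 (1 gained) and 20 at day 21. In the difference of changes 7 were lower. Of all 13975 genes 2.98%, 2.05%, 5.35%, 4.66% and 0.73% were called lower in these fits, and 11.8% and 16.3% gained at days 7 and 14. With -log10 q of at least 5, or fold of at least 4, only 84 and 78 ZNF genes could be tested and every count was 0 in limma. Over all 8312 and 4729 genes tested 0 and 2 were gained and 0 and 0 lost in KO clones, and 28 and 23 gained and 9 and 14 lost at day 21, so these zeros say little of the ZNF genes. At an unadjusted p under 0.05 2 and 5 ZNF genes passed in KO clones (7.04% and 8.52% of all genes) and 1 and 3 at day 21 (9.3% and 11.7%). Peaks joined over 3 kb gave 0 and 0 ZNF genes at day 7, 2 lost at day 14, 1 lost at day 21 and 0 lower in the difference of changes. Of all genes 10.7% gained and 0.0561% were lost at day 7. At days 14 and 21 0.287% and 0.245% of all genes were lost, and 0% were lower in the difference of changes. Without the filter 1 ZNF gene gained at day 14 (17.6% of all genes). With bodies extended by 5 kb 6, 11 and 7 ZNF genes were lost at days 7, 14 and 21 (0.166%, 0.587% and 0.421% of all genes). Fitted on the compared groups alone, 1 ZNF gene was lost in KO clones (0.315% of all genes) and 1 gained at day 21 (19.2%). In the difference of changes 1 was lower (0.0787% of all genes).

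The labels do not say that replicate numbers pair the libraries, and they were not treated as pairs because the correlation of deviations was not over 0.1 in every one of 105 pairs of groups (lowest 0.0335, median 0.187, 84 over 0.1). Same-numbered libraries nevertheless deviated together in part, and replicate 1 had the longer called length in 13 of 15 groups. With the replicate block alone 4 ZNF genes were lost at day 7, 9 at day 14 and 8 at day 21 (6 gained). KO clone 3 lost 6 and KO clone 12 lost 2. Of all genes 0.408%, 1.17%, 0.83%, 1.09% and 0.436% were lost in these fits, and 31.8% gained at day 21. In the difference of changes the block gave 1 ZNF gene higher and 5 lower (5.32% and 0.322% of all genes). In clone 11 it gave 4 gained and 2 lost (15.3% and 0.329% of all genes).

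Leaving out 1 library gave 0 to 1 gained and 4 to 6 lost in KO clones, 0 to 2 and 1 to 5 at day 7, 1 to 2 and 2 to 6 at day 14, and 2 to 6 and 3 to 5 at day 21. It gave 0 to 2 gained and 0 to 0 lost in the dTAG parental line at day 21, and 0 to 2 higher and 0 to 4 lower in the difference of changes. For single clones it gave 1 to 4 and 1 to 7 in KO clone 3, 0 to 0 and 0 to 4 in KO clone 12, 0 to 4 and 0 to 3 in clone 8, and 0 to 1 and 0 to 1 in clone 11. The difference in share of called length was -0.200 points in KO clones and -0.221 at day 21, with -0.216 to -0.184 and -0.227 to -0.212 when 1 library was left out, -0.196 and -0.218 with joined peaks, -0.0941 and -0.106 at -log10 q of at least 5, and -0.268 and -0.149 at fold of at least 4. Reciprocal overlap of 50% lowered the median share of ZNF peaks met by the other replicate to 60.3%.

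Uncalled gains in KO clones turned round for ZNF256 with bodies extended by 5 kb (-4.00 points), for ZNF57 when scaled (-5.74 points, also with the block), and for ZNF581 when scaled (-0.738 points, also with the block), at equal list length (-2.26 points), at -log10 q of at least 5 (-1.63 points) and with extended bodies (-1.40 points). The cause of these shifts was not tested. A gene at 0% is one without a called peak at that depth.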
